A study of Rattus norvegicus with 10 samples.

Results

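The genes described here keep proteins folded in the liver. They are a list of 41 genes in 2 arms, of which 25 belong to the endoplasmic reticulum (ER) stress response and 16 to the heat shock response of the cytosol and the mitochondria. A gene was measured where a probe set of the array carried its symbol alone, and where a gene had several such probe sets, the most variable one among the 10 arrays was used. By this rule 37 of the 41 genes were measured, among 14217 genes on the array, 24 in the ER arm and 13 in the heat shock arm. Ern1 had no probe set under its symbol, and Hspa1b, Hspa8 and Hsp90aa1 had probe sets that carried several symbols only. Each array read whole-liver RNA of a male Wistar rat with cirrhosis brought on by inhaled CCl4, which all 10 rats shared. The vehicle group held 5 rats that received the carrier solution weekly, and the CVX-060 group held 5 rats that received CVX-060, an inhibitor of angiopoietin 2, at 10 mg/kg weekly for 4 weeks. The livers hold no healthy control, and in whole tissue fewer cells of a type and less RNA per cell cannot be told apart. All values are log2 signals, in which 1 unit is a doubling, and levels of different genes are not compared, since each probe set has its own brightness.

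Secretory proteins enter the ER unfolded, and chaperones such as BiP, the product of Hspa5, hold them until disulfide isomerases and lectin chaperones have shaped them. When unfolded protein accumulates, the sensors IRE1, PERK and ATF6 start the unfolded protein response. ATF6 and spliced XBP1 switch on chaperone and degradation genes, and PERK acts through ATF4 on the stress genes Ddit3 (CHOP), Trib3 and Ppp1r15a. In the cytosol, heat shock factor 1 (HSF1) switches on HSP70, HSP110, HSP90 and their co-chaperones. Hepatocytes secrete most plasma proteins and depend heavily on the ER machinery.

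Promoter sequences were looked up in the RefSeq table of the rat build GRCr8, which covers 250 bases before to 50 bases after each start. It held 20 of the 25 listed ER genes and 12 of the 16 listed heat shock genes. Without an entry were Pdia3, Pdia6, Manf, Atf6, Ern1, Hspa1b, Hsp90aa1, Hsf1 and Cryab. The ER stress response element, a CCAAT box and CCACG with 9 bases between them (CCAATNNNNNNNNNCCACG, read on both strands), stood in the promoters of 7 ER genes and 0 heat shock genes, and in 0.0657% of all 33469 promoters. The 7 were Hspa5, Hsp90b1, Calr, Canx, Dnajc3, Creld2 and Xbp1. The shorter second form (ATTGG and CCACG with 1 base between them, on both strands), which was added to the search after the data were seen, stood in the promoters of Hyou1, Herpud1 and Dnajb11 and in 0.0508% of all promoters. The heat shock element of 3 alternating pentamers (GAANNTTCNNGAA or TTCNNGAANNTTC) stood in the promoters of Hspa8, Hsph1, Dnaja1, Hspd1 and Hspe1, in those of 0 ER genes and in 0.798% of all promoters. Hspd1 and Hspe1 are neighbours read in opposite directions, so that their windows overlap and hold the same elements, and the matches within them overlap each other. The E-box CACGTG, the site read by BMAL1 and CLOCK but also by other factors, stood in the promoters of Canx, Dnajb9, Atf4 and Hsph1 and in 6.42% of all promoters. A match is a run of letters only, and binding was not measured.

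The stretches printed here end at the base before the annotated start and show, in capitals, the fixed letters of the element. For Hspa5, Hsp90b1, Calr, Dnajc3, Creld2 and Xbp1 these are CCAAT with CCACG or, on the other strand, CGTGG with ATTGG. For Hyou1 they are the second form on the other strand, and for Hsph1 they are the heat shock pentamers. Hspa5, Hsp90b1, Calr, Dnajc3, Creld2 and Hyou1 are shown because they are chaperone genes whose signals moved together over the 10 rats. Xbp1 is shown because it holds the ER stress response element but did not follow them, and Hsph1 as the HSP110 gene of the list. Canx holds the element too and is not printed. On its most variable probe set it followed the rest of its arm less closely, with r = 0.27. Pdia4, Sdf2l1 and Syvn1, in turn, hold neither form of the element in the window searched. They followed the rest of the ER arm with r = 0.95, 0.94 and 0.89.
Hspa5, chr3:38452856-38453015, plus strand: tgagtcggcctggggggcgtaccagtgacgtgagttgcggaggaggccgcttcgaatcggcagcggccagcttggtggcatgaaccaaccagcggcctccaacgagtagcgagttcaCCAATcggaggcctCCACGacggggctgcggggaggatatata
Hsp90b1, chr7:23012294-23012543, minus strand: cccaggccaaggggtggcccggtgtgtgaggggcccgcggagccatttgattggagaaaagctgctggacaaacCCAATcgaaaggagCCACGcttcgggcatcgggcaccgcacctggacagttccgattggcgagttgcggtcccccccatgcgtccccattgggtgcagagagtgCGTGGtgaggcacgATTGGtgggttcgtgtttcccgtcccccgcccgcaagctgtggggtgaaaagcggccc
Calr, chr19:40213117-40213366, plus strand: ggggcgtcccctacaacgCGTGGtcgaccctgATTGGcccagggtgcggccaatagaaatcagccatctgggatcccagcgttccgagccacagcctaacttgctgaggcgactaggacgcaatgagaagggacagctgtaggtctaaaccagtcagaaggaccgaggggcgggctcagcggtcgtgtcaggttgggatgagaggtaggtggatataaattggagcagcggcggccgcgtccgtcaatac
Dnajc3, chr15:102432507-102432666, plus strand: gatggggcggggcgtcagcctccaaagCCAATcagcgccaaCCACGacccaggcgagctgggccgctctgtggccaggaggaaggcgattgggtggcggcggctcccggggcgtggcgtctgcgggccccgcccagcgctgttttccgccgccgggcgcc
Creld2, chr7:121789224-121789383, plus strand: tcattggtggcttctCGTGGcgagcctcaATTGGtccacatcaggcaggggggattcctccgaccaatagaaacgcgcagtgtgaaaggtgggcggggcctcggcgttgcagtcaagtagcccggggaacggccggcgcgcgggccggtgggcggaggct
Xbp1, chr14:84604463-84604622, plus strand: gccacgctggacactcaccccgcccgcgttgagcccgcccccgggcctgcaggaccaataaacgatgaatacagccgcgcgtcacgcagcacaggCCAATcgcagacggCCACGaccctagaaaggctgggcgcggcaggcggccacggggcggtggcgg
Hyou1, chr8:53602632-53602881, plus strand: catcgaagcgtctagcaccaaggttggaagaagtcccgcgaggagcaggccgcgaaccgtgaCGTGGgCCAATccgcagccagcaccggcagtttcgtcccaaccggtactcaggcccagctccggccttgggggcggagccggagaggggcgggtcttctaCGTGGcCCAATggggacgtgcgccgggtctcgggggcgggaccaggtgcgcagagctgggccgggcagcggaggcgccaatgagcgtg
Hsph1, chr12:10427208-10427367, plus strand: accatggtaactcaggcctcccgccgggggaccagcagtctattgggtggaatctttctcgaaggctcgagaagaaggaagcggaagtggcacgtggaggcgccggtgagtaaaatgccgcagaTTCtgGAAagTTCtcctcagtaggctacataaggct

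Before the members, the arrays themselves were compared. The paper kept 2 replicates per treatment after its quality control, without naming them, whereas all 10 arrays are used here. Array medians lay between 5.52 and 5.57. Over all genes, 2 livers, those of vehicle rat 2 and of CVX-060 rat 5, were set off from the rest, with 34.5 and 35.5 on the first principal component against -26.2 to 9.74 in the others. In these 2 livers the male-type cytochrome gene Cyp2c11 lay at 8.99 and 11.4, against 12.7 to 13.9 in the other 8. The female-type gene Cyp2c12 lay at 12.71 and 12.02 there, against 7.11 to 9.79 in the other 8. Results are therefore also given without these 2 livers. The liver label was borne out by the hepatocyte markers, 6 of 7 of which lay above background in all rats, among them the albumin gene Alb. Background was the 95th percentile of 19 olfactory, vomeronasal and trace amine receptor probe sets on the same array. Of the 37 members, 36 lay above it in all 10 rats. The exception was Hspa1a, which lay above it in 8.

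One liver stood out among the ER chaperones. CVX-060 rat 4 had the highest signal of all 10 rats in 17 of the 24 ER members and in 7 of the 13 heat shock members, where 12.7% of all genes were highest in that rat. Among the 9 ER chaperones it was highest in 9. Vehicle rat 5 had the second highest ER arm score, which is the mean over members of the signal minus the mean of the 10 rats. The other 4 CVX-060 rats lay among or below the vehicle rats.

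**Figure D1:**
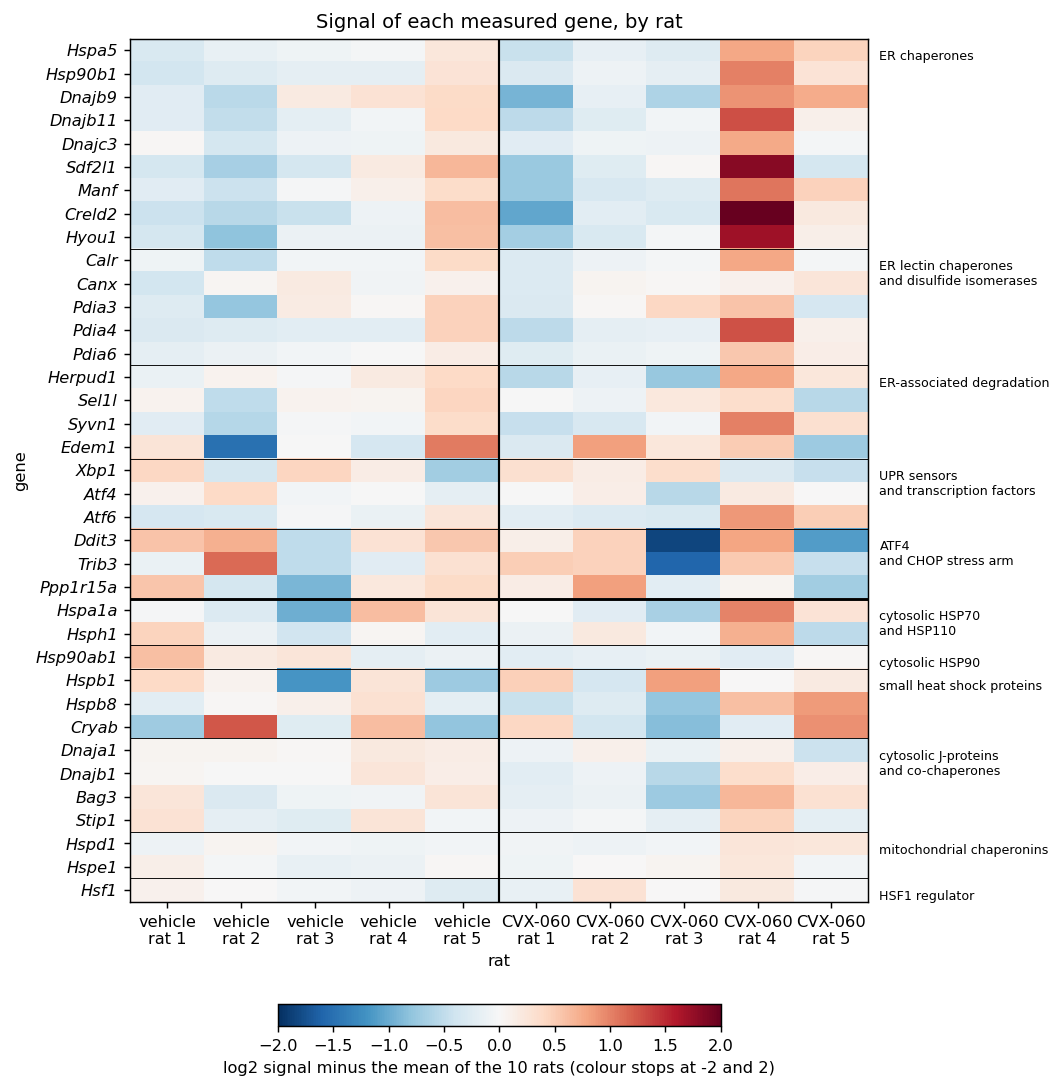
Log2 signal of each of the 37 measured genes (rows) in each rat (columns), minus the gene's mean over the 10 rats, with red above and blue below that mean. The column of CVX-060 rat 4 is red over all 9 ER chaperones, reaching 2.28 for Creld2. Xbp1, at -0.30, and Hsp90ab1, at -0.22 on its most variable probe set, lie below their means there.

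Creld2, an ER-resident factor of protein folding, spanned the widest range. Its signal lay at 9.64, 9.50, 9.62, 9.97 and 10.69 in vehicle rats 1 to 5 and at 9.03, 9.86, 9.76, 12.34 and 10.26 in CVX-060 rats 1 to 5. CVX-060 rat 4 thus lay 1.66 above the next rat, 3.15-fold on the linear scale, while CVX-060 rat 1 was the lowest of all. Sdf2l1, a partner of BiP complexes, lay at 9.61, 9.29, 9.61, 10.14 and 10.62 in the vehicle rats and at 9.22, 9.71, 9.99, 11.78 and 9.61 in the CVX-060 rats. Hyou1, an HSP70-like exchange factor for BiP, lay at 8.10, 7.66, 8.33, 8.33 and 9.05 with vehicle and at 7.78, 8.15, 8.42, 10.15 and 8.57 with CVX-060. In both, CVX-060 rat 4 stood more than 1 unit above the next rat, vehicle rat 5, and the groups otherwise overlapped.

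The major chaperones spanned a smaller range, again with CVX-060 rat 4 highest, but the rat next to it varied. Hspa5 lay at 12.85, 13.003, 13.07, 13.12 and 13.39 in the vehicle rats and at 12.70, 12.99, 12.90, 13.92 and 13.60 in the CVX-060 rats, so that CVX-060 rats 4 and 5 lay above all the others. Hsp90b1, which encodes the ER form of HSP90 (GRP94), lay at 12.32, 12.43, 12.49, 12.50 and 12.95 with vehicle and at 12.39, 12.58, 12.51, 13.68 and 12.95 with CVX-060. Dnajb11, a J-protein that delivers clients to BiP, lay at 10.03, 9.77, 10.06, 10.21 and 10.66 with vehicle and at 9.73, 10.02, 10.21, 11.54 and 10.36 with CVX-060. The step of CVX-060 rat 4 over the next rat was 0.33 for Hspa5, 0.73 for Hsp90b1 and 0.89 for Dnajb11. Manf, a secreted ER stress factor, lay at 11.78, 11.58, 11.98, 12.10 and 12.37 with vehicle and at 11.27, 11.68, 11.75, 13.08 and 12.46 with CVX-060. Dnajb9, a J-protein that helps to restrain IRE1, lay at 10.82, 10.51, 11.23, 11.33 and 11.43 with vehicle and at 10.11, 10.87, 10.43, 11.94 and 11.79 with CVX-060. For Dnajb9 the step was only 0.15, since CVX-060 rat 5 was nearly as high. Dnajc3, a BiP co-chaperone, lay between 10.94 and 11.49 in 9 rats and at 12.05 in CVX-060 rat 4.

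Among disulfide isomerases and lectin chaperones, Pdia4 showed the pattern most clearly. It lay at 11.58, 11.61, 11.66, 11.65 and 12.33 in the vehicle rats and at 11.33, 11.68, 11.70, 13.14 and 11.96 in the CVX-060 rats. Pdia6 lay between 11.60 and 11.98 in 9 rats and at 12.38 in CVX-060 rat 4, and the lectin chaperone Calr between 10.25 and 11.13 against 11.53. Pdia3 was also highest in that rat, by 0.11. Canx, the membrane-bound lectin chaperone, was not, at 9.14 against 9.30 in CVX-060 rat 5, although both of its other probe sets were highest in CVX-060 rat 4, at 11.60 and 11.86.

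The degradation genes were mixed. Herpud1, a membrane adaptor of ER-associated degradation, lay at 12.28, 12.49, 12.39, 12.59 and 12.81 in the vehicle rats and at 11.86, 12.25, 11.66, 13.18 and 12.64 in the CVX-060 rats. Syvn1, the ubiquitin ligase HRD1, lay at 9.22, 8.88, 9.43, 9.40 and 9.82 with vehicle and at 8.98, 9.13, 9.40, 10.45 and 9.77 with CVX-060. Both were highest in CVX-060 rat 4. Edem1, a lectin that picks out misfolded glycoproteins, was highest in vehicle rat 5, at 11.54, and lowest in vehicle rat 2, at 9.03, with CVX-060 rat 4 at 11.02. Sel1l, the partner of HRD1, lay at 9.24 in vehicle rat 5 and at 9.17 in CVX-060 rat 4.

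The transcription factors did not follow the chaperones as a set. Atf6, which encodes the sensor that is cut in the Golgi to become a transcription factor, lay at 9.87, 9.90, 10.18, 10.07 and 10.44 in the vehicle rats and at 9.99, 9.93, 9.89, 11.06 and 10.69 in the CVX-060 rats. Xbp1, whose mRNA is spliced by IRE1, lay at 12.92, 12.16, 12.93, 12.65 and 11.81 with vehicle and at 12.82, 12.66, 12.85, 12.21 and 12.05 with CVX-060. Atf6 was highest in CVX-060 rat 4, whereas Xbp1 was lowest in vehicle rat 5 and ranked seventh of the rats in CVX-060 rat 4. The array reads total Xbp1 mRNA, and its splicing was not measured. Atf4 ranged from 11.27 in CVX-060 rat 3 to 12.22 in vehicle rat 2, with CVX-060 rat 4 at 11.99.

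The genes downstream of ATF4 varied by another order of rats. Ddit3, which encodes the stress factor CHOP, lay at 9.81, 9.95, 8.73, 9.53 and 9.78 in the vehicle rats and at 9.35, 9.70, 7.40, 10.04 and 8.13 in the CVX-060 rats. Trib3, a pseudokinase induced by ATF4 and CHOP, lay at 9.61, 10.88, 9.23, 9.52 and 10.05 with vehicle and at 10.23, 10.20, 8.16, 10.26 and 9.28 with CVX-060. Ppp1r15a (GADD34), which directs the removal of phosphate from eIF2α, lay at 10.12, 9.22, 8.65, 9.78 and 9.95 with vehicle and at 9.72, 10.38, 9.37, 9.62 and 8.88 with CVX-060. CVX-060 rat 3 was lowest for Ddit3 and Trib3, and CVX-060 rat 4 was highest for Ddit3 alone, by 0.08.

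**Figure D2:**
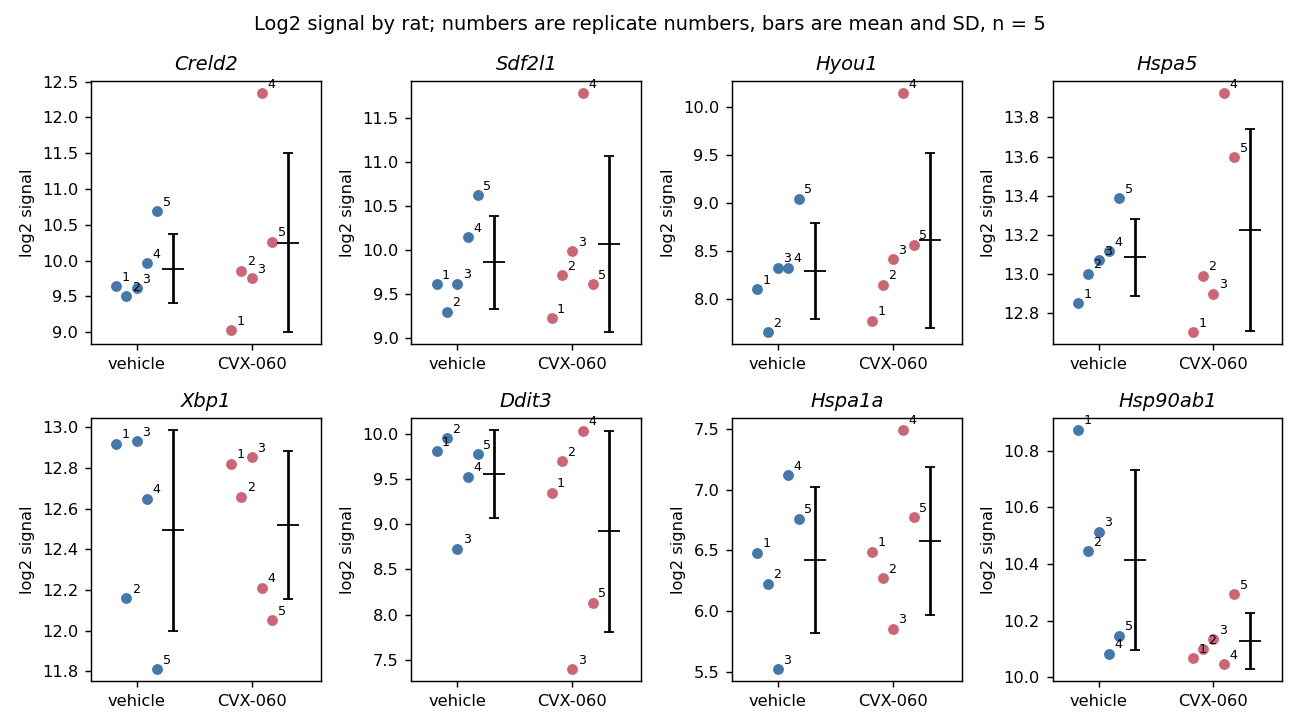
Log2 signal of 8 genes (vertical axes, each with its own range) in vehicle and CVX-060 rats; points are rats with their replicate numbers, and bars give mean and SD, n = 5. CVX-060 rat 4 is far above the rest for Creld2, Sdf2l1 and Hyou1, at 12.34, 11.78 and 10.15. On the most variable probe set of Hsp90ab1 it is the lowest rat, at 10.05.

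In the heat shock arm the inducible HSP70 gene Hspa1a lay at 6.48, 6.22, 5.52, 7.12 and 6.76 in the vehicle rats and at 6.49, 6.27, 5.86, 7.49 and 6.77 in the CVX-060 rats. Hsph1, the HSP110 exchange factor, lay at 8.71, 8.15, 7.89, 8.31 and 8.06 with vehicle and at 8.16, 8.46, 8.21, 8.97 and 7.74 with CVX-060. Both were highest in CVX-060 rat 4, and so were the co-chaperone genes Dnajb1, Bag3 and Stip1 and the mitochondrial chaperonin genes Hspd1 and Hspe1, by 0.02 for Hspd1 to 0.36 for Bag3. Hsp90ab1, the constitutive cytosolic HSP90, lay at 10.87, 10.45, 10.51, 10.08 and 10.15 with vehicle and at 10.07, 10.10, 10.13, 10.05 and 10.29 with CVX-060, so that CVX-060 rat 4 was its lowest rat. Its other probe set, with a mean of 12.16 over the rats, hardly followed the first, with r = 0.06 over the 10 rats. On that probe set CVX-060 rat 4 lay at 12.27, below only vehicle rat 2 at 12.33 and CVX-060 rat 5 at 12.29. The small heat shock proteins went their own way. Hspb8, a partner of BAG3 in autophagy of misfolded protein, was highest in CVX-060 rat 5 at 10.22, Cryab in vehicle rat 2 at 9.17 and Hspb1 in CVX-060 rat 3 at 9.61. Dnaja1 lay between 10.23 and 10.85, and Hsf1, the regulator itself, between 6.93 and 7.49.

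The ER members varied together more than the heat shock members did. Over the 10 rats the median correlation between 2 genes was 0.89 among the 14 ER chaperones, lectins and isomerases, 0.51 over all 24 ER members and 0.18 over the 13 heat shock members, beside 0.00 over all pairs of genes. These are descriptions, since genes on the same arrays are not independent. Without CVX-060 rat 4 the first value was 0.78 and that of the heat shock members 0.10. Against the mean of the rest of its arm, Dnajc3 and Creld2 followed most closely, each with r = 0.96, while Atf4 had 0.10, Trib3 0.14, Ppp1r15a 0.14 and Xbp1 -0.54. In the heat shock arm Hspa1a followed its arm most closely, with r = 0.76, and Dnaja1 had 0.01, Hspb1 0.03 and Hsp90ab1 -0.13.

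ER arm scores were -0.11, -0.30, -0.12, -0.01 and 0.34 in vehicle rats 1 to 5 and -0.32, -0.01, -0.26, 0.82 and -0.04 in CVX-060 rats 1 to 5. Heat shock arm scores were 0.10, 0.06, -0.23, 0.15 and -0.12 with vehicle and -0.06, -0.09, -0.25, 0.31 and 0.13 with CVX-060. CVX-060 rat 4 had the highest score of both arms, but vehicle rat 5, second in the ER arm, was below the mean in the heat shock arm. Over the 10 rats the scores had Pearson's r = 0.53 and Spearman's rho = 0.37, and without CVX-060 rat 4 and vehicle rat 5, the 2 rats farthest from the median ER score, r = 0.35.

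**Figure D3:**
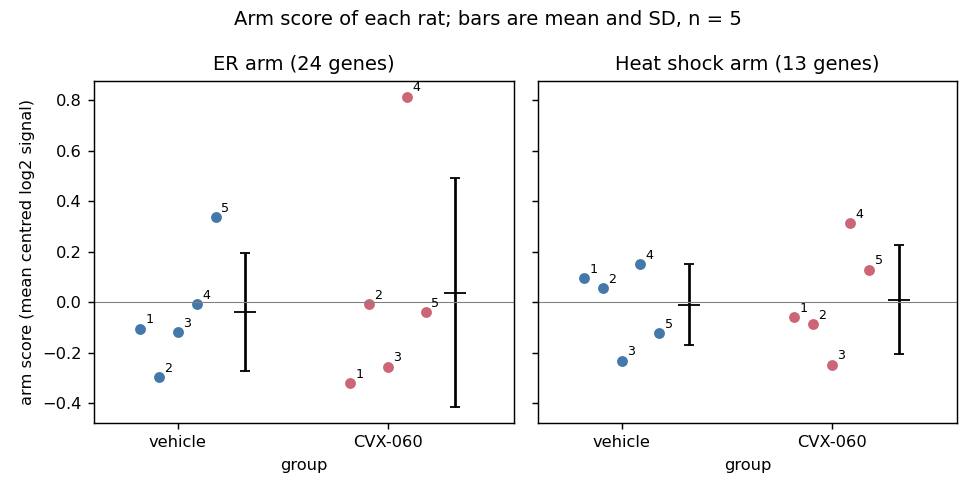
Arm score (vertical axis, mean of the members' log2 signals after each gene's mean over the 10 rats is taken off) of each rat in the vehicle and CVX-060 groups; points carry replicate numbers and bars give mean and SD, n = 5. In the ER arm CVX-060 rat 4, at 0.82, stands above the other 4 CVX-060 rats, which lie between -0.32 and -0.01.

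Markers of other cell types were set beside these scores. The mean of the plasma cell and B cell markers, cells with a large ER, lay between -0.14 and 0.12 in the vehicle rats and between -0.10 and 0.14 in the CVX-060 rats, with 0.08 in CVX-060 rat 4. Of the 6 measured markers of these cells, Mzb1, Tnfrsf17, Cd79b and Ms4a1 were above background in 0 rats. Hepatocyte markers lay between -0.10 and 0.05 with vehicle and between -0.04 and 0.06 with CVX-060, with -0.02 in CVX-060 rat 4. The mean of the 9 macrophage and Kupffer cell markers was -0.34 in CVX-060 rat 4, below the other 4 CVX-060 rats at 0.05 to 0.58 and within the vehicle range of -0.37 to 0.12. That of the 7 sinusoidal endothelium markers was -0.14 there, also below the other 4 CVX-060 rats at 0.10 to 0.37, with -0.56 to 0.06 in the vehicle rats. The 10 stellate cell and myofibroblast markers had a mean of -0.07 there, with -0.44 to 0.39 in the other CVX-060 rats and -0.52 to 0.37 in the vehicle rats. All 9 macrophage markers were highest in CVX-060 rat 5, and the cholangiocyte mean was 0.28 in CVX-060 rat 4, where the rats ranged from -0.74 to 0.57. Immediate early genes, among the fastest to answer handling or injury, had a mean of -0.40 in that rat, where the rats ranged from -1.01 to 0.72. The part of these cells and of tissue handling in the ER scores was not tested further.

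CVX-060 was compared with vehicle to ask whether the inhibitor shifted these genes. By limma's moderated test with Benjamini-Hochberg adjustment over all genes, 0 of the 37 members passed an adjusted p of 0.05, and so did 0% of all genes. At an unadjusted p under 0.05 there were 0 members, beside 2.44% of all genes. In the ER arm 18 of 24 members had the higher mean with CVX-060, where 52.6% of all genes did, with a median difference of 0.13 beside 0.01 over all genes. Other lists lay further from 0, with 9 of 9 macrophage markers higher with CVX-060 (median 0.27), 7 of 7 sinusoidal endothelium markers higher (median 0.35) and 10 of 10 immediate early genes lower (median -0.59), and their part in the ER values was not tested. Without CVX-060 rat 4, 7 of 24 were higher and the median difference was -0.06. In the heat shock arm 6 of 13 were higher and the median was -0.01.

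Hsp90ab1 differed most relative to its SE, while the genes of larger difference also had larger errors. Creld2 differed by 0.37 (SE 0.53), with means of 9.88 ± 0.48 (SD, n = 5) with vehicle and 10.25 ± 1.25 with CVX-060, and by -0.16 without CVX-060 rat 4. Hyou1 differed by 0.32 (SE 0.41), Hsp90b1 by 0.28 (SE 0.23), Hspa5 by 0.14 (SE 0.22) and Herpud1 by -0.20 (SE 0.26). The most negative was Ddit3, at -0.64 (SE 0.48), with means of 9.56 ± 0.49 (SD, n = 5) and 8.92 ± 1.12. In the heat shock arm Hspb1 differed by 0.47 (SE 0.32). Hsp90ab1 differed by -0.28 (SE 0.14), and its exact two-sided permutation p of 0.079 was the smallest of any member, where a comparison of 5 rats with 5 can reach 0.0079. On the other probe set of Hsp90ab1 the groups overlapped fully, with 11.90 to 12.33 for vehicle and 12.11 to 12.29 for CVX-060. The ER arm score differed by 0.08 (SE 0.23) and the heat shock arm score by 0.02 (SE 0.12), and without CVX-060 rat 4 by -0.12 (SE 0.14) and -0.06 (SE 0.11).

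**Figure D4:**
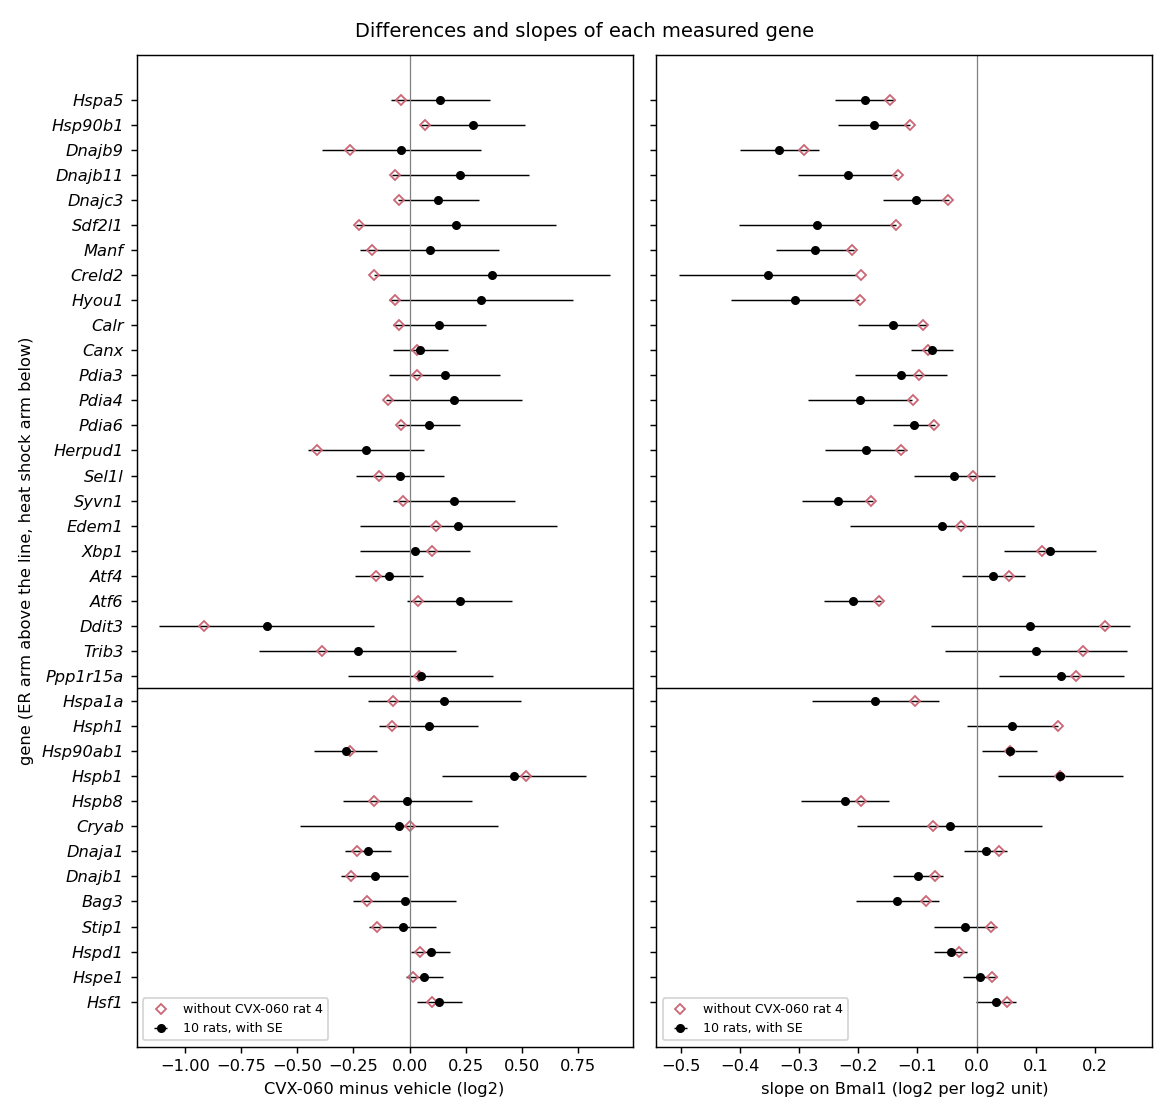
Difference CVX-060 minus vehicle (left, log2) and slope on the Bmal1 signal (right, log2 per log2 unit) of each measured gene; filled points with bars are the estimate and SE over 10 rats, open diamonds the estimate without CVX-060 rat 4. On the left, 18 of 24 ER members lie above 0 with all rats and 7 of 24 without that rat; on the right, 19 of 24 ER members lie below 0.

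Bmal1, the core activator of the circadian clock, split the rats into a high and a low band. It lay at 7.90, 7.95, 5.13, 4.87 and 4.88 in the vehicle rats and at 8.38, 8.75, 8.17, 5.75 and 5.21 in the CVX-060 rats. Only the 5 rats of the high band had Bmal1 above background. That limit rests on 19 probe sets, with a median over the arrays of 5.91, where the 90th percentile had a median of 4.80. Values in the low band lay between these medians. By the 95th percentile they give only an upper bound to its level, and slopes per unit of Bmal1 depend on where that floor is set. Both bands hold 5 rats, too few for a correlation within either, and no pooled correlation is given. ER arm scores in the rats of low Bmal1 were -0.12, -0.01, 0.34, 0.82 and -0.04, and in the rats of high Bmal1 they were -0.11, -0.30, -0.32, -0.01 and -0.26. The bands overlapped, and both rats with clearly raised scores, CVX-060 rat 4 and vehicle rat 5, were of low Bmal1. Dbp, a clock output gene, ran opposite to Bmal1, with 9.33 to 10.04 where Bmal1 was low and 5.84 to 7.01 where it was high, and was above background in 8 rats. The time of day at which each liver was taken is not given in the sources used here.

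The slope on Bmal1 was fitted with the group as a second term, which sets mainly one band against the other. No member passed, 0 of 37, where 0.366% of 14216 genes did, but 15 members had an unadjusted p under 0.05, a share above the 12.6% of all genes. All 15 slopes were below 0, and slopes below 0 with such a p made up 6.89% of all genes. They belonged to 13 ER members and to Hspb8 and Dnajb1 of the heat shock arm. In all, 19 of 24 ER members and 7 of 13 heat shock members had slopes below 0, where 50.3% of all genes did, with median slopes of -0.16 and -0.02. All 9 ER chaperones, all 5 lectins and isomerases and all 4 degradation genes were among the 19, whereas Xbp1, Atf4, Ddit3, Trib3 and Ppp1r15a had slopes above 0.

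Dnajb9 came nearest to the threshold, with a slope of -0.33 (SE 0.07, adjusted p = 0.084 by limma). It was followed by Atf6 at -0.21 (SE 0.05, adjusted p = 0.14), Manf at -0.27 (SE 0.07, adjusted p = 0.15), Syvn1 at -0.24 (SE 0.06, adjusted p = 0.16) and Hspa5 at -0.19 (SE 0.05, adjusted p = 0.18). With the Dbp level in place of Bmal1, Dnajb9 passed, with an adjusted p of 0.040 by limma. Creld2 had a slope of -0.35 (SE 0.15), and Hspb8 of -0.22 (SE 0.07). The ER arm score changed by -0.13 (SE 0.07) per unit of Bmal1 and the heat shock arm score by -0.03 (SE 0.04). Without CVX-060 rat 4 the ER slope was -0.07 (SE 0.04), and the median slope of the ER members was -0.10.

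**Figure D5:**
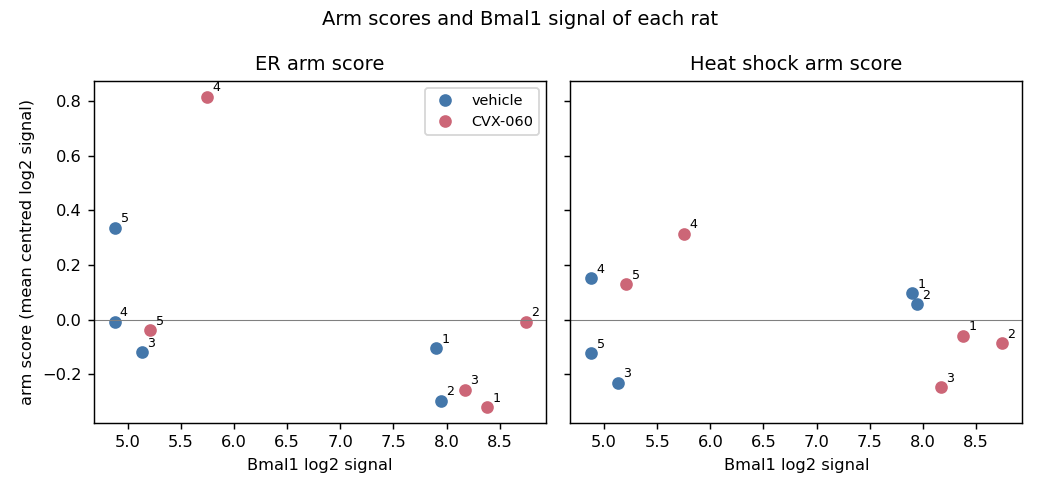
Arm score (vertical axes, mean centred log2 signal) against the Bmal1 log2 signal (horizontal axes) of each rat, with replicate numbers and colour by group, for the ER arm (left) and the heat shock arm (right). No rat lies between 5.75 and 7.90 on the Bmal1 axis, and the ER scores of 0.82 and 0.34 belong to rats of low Bmal1.

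Within groups the ER arm score changed by -0.10 (SE 0.06) per unit of Bmal1 among the vehicle rats and by -0.16 (SE 0.13) among the CVX-060 rats. For the heat shock arm these slopes were 0.04 (SE 0.05) and -0.11 (SE 0.04), a difference of -0.15 (SE 0.07) for which no test is given, since it is a score over chosen genes. For single members the difference of slopes between the groups passed an adjusted p of 0.05 in 0 of 37, as in 0% of all genes. At an unadjusted p under 0.05 there were 3 members, Hspb8, Hspd1 and Hspa5, beside 10.8% of all genes, and the smallest adjusted p was 0.35, that of Hspb8 by limma.

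A wider list of ER folding and stress genes showed the same rat. Of its 42 measured genes, 25 were highest in CVX-060 rat 4, 29 had the higher mean with CVX-060 and 35 had slopes on Bmal1 below 0. Over all genes these shares were 12.7%, 52.6% and 50.3%. None passed an adjusted p of 0.05 in either fit, 0 of 42, although 23 had an unadjusted p under 0.05 on Bmal1, 21 of them below 0. Such p values were found for 12.6% of all genes, and with slopes below 0 for 6.89%. Derl1, a channel of ER-associated degradation, had a slope of -0.19 (SE 0.03, adjusted p = 0.064 by limma). Sec61a1, the core of the translocon, had -0.20 (SE 0.04), Ero1b, which reoxidizes disulfide isomerases, -0.30 (SE 0.06) and Edem2, a mannosidase of the degradation path, -0.14 (SE 0.03). For CVX-060 the smallest unadjusted p values belonged to the isomerase P4hb, with a difference of 0.17 (SE 0.10), to the protease Mbtps2, with 0.26 (SE 0.16), to Edem3, with -0.15 (SE 0.10) and below background in all rats, and to the stress factor Atf3, with -0.78 (SE 0.50).

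A wider list of chaperones of the cytosol and mitochondria moved less. Of its 37 measured genes, 14 were highest in CVX-060 rat 4, 23 had the higher mean with CVX-060 and 26 had slopes on Bmal1 below 0. The shares over all genes were again 12.7%, 52.6% and 50.3%. In either fit 0 of the list passed, beside 0% of all genes for CVX-060 and 0.366% on Bmal1. At an unadjusted p under 0.05 there was 1 gene for CVX-060, beside 2.44% of all genes, and 5 on Bmal1, beside 12.6%. All 5 slopes were below 0, and slopes below 0 with such a p made up 6.89% of all genes. For CVX-060, Hspa9, the mitochondrial HSP70, differed by -0.82 (SE 0.32), the chaperonin subunit Cct6a by 0.20 (SE 0.09), Hsbp1, a binding partner of HSF1, by -0.15 (SE 0.08) and the collagen chaperone Serpinh1 by 0.31 (SE 0.16). Hspa9 lay at 5.48 and 5.49 in CVX-060 rats 1 and 3 and between 6.62 and 7.39 in the others, and was above background in 8 rats. On Bmal1 the smallest p values were those of the chaperonin subunit Tcp1, with a slope of -0.10 (SE 0.03), the autophagy receptor Sqstm1, with -0.19 (SE 0.05), the HSP90 co-chaperone Fkbp5, with -0.30 (SE 0.12), and Hspa4, an HSP110 relative, with -0.13 (SE 0.05).

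The clock genes were read beside the members. Of 10 measured clock genes other than Bmal1, 3 passed, where 0.366% of all genes did. They were Dbp with a slope of -1.11 (SE 0.05, adjusted p = 3.11e-05 by limma), Per3 with -0.36 (SE 0.04, adjusted p = 0.010) and Clock with 0.24 (SE 0.03, adjusted p = 0.010). For CVX-060 minus vehicle none of the 11 passed, 0 of 11, as in 0% of all genes. At an unadjusted p under 0.05 by limma there were 3, beside 2.44% of all genes. These were Nr1d1, the repressor REV-ERBα, at -0.84 (SE 0.20), Per3 at -1.14 (SE 0.35) and Nr1d2 at -0.59 (SE 0.23). Nr1d1 was above background in only 6 rats and Per3 in only 7, so that their lower values reach the background level. Npas2, a partner of BMAL1 that was above background in 4 rats, had a slope of 0.83 (SE 0.21), Cry1 of 0.22 (SE 0.10), Tef of -0.20 (SE 0.09), Per2 of -0.27 (SE 0.17) and Per1 of 0.01 (SE 0.03).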

How the data were processed

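Whole-liver RNA of 10 rats, 5 per group, was hybridized to Affymetrix Rat Genome arrays from 150 ng each. Each probe set has a log2 signal, which the authors had normalized between arrays before it was deposited. R 3.4.0 with affy 1.56.0 and limma 3.38.2 is listed in the submitters' processing notes. The background and summary methods are not given in the sources used here. The signals of all 10 arrays, also those that the paper set aside, were used without further normalization. Of 31099 probe sets, 20826 carried a single symbol and covered 14217 genes.

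Groups were compared, and slopes on Bmal1 fitted beside group, with the moderated test of limma 3.58.1 (lmFit and eBayes, R 4.3.3), and p-values were adjusted over all genes by Benjamini-Hochberg; Bmal1 was left out of its own fit. Members were also tested by exact permutation. Summaries were made in Python 3.11.15 with pandas 2.3.3, numpy 2.4.6 and scipy 1.17.1, and plots with matplotlib 3.10.9. Fits were tested on simulated data. The members and lists were chosen with earlier results of these data known. Named are all measured members, the clock genes and, of each wider list, the 4 genes of smallest p per fit. Alternatives tried were the brightest probe set per gene, quantile normalization, array medians at 0, a filter at the 40th percentile, another variance prior, array weights, a replicate block, rats left out, the Bmal1 covariate, other forms of the Bmal1 term and other forms of the scores. Replicates are separate rats, and p-values measure their spread. The number of arrays limits the precision.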

Additional observations from a re-analysis of the deposited data

Results flagged for a closer look

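A rat was singled out where its gap to the nearest of the other 4 rats of its group took up most of the group's range (Dixon's 95% limit), which chance alone gives in about 1 in 20 groups. Over all genes this held for 7.32% in the vehicle group and 6.19% in the CVX-060 group. In the CVX-060 group the ER arm score of rat 4, at 0.82, lay above the other 4 rats at -0.32 to -0.01. CVX-060 rat 4 was also singled out for Calr at 11.53 (others 10.48 to 10.71), Dnajc3 at 12.05 (others 11.07 to 11.26) and Stip1 at 8.73 (others 8.10 to 8.25). A high CVX-060 rat 4 was found in this way in 0.549% of all genes. Vehicle rat 5 was singled out for Hsp90b1 at 12.95 (others 12.32 to 12.50) and Pdia4 at 12.33 (others 11.58 to 11.66), and CVX-060 rat 3 for Atf4 at 11.27 (others 11.81 to 11.99). For Creld2, Sdf2l1 and Hyou1, whose steps in CVX-060 rat 4 were larger, the gap did not reach the limit.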

How the results depend on the processing

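With CVX-060 minus vehicle, 0 members passed an adjusted p of 0.05 under every alternative run, from 0 to 0 with a rat left out. The ER arm score difference ranged from -0.12 to 0.17 with a rat left out, turning below 0 without CVX-060 rat 4, and the heat shock difference from -0.06 to 0.08. The ER difference was 0.22 with Bmal1 as a covariate, and array weights left 7 of 24 ER members higher. On Bmal1, 0 members passed under every alternative but 1, the Dbp level in its place, where 1 passed (Dnajb9); with a rat left out the ER slope ranged from -0.18 to -0.07 and the heat shock slope from -0.05 to -0.01. Genes past the threshold on Bmal1 over the whole array numbered 52, but 1 without CVX-060 rat 5, 15 without CVX-060 rat 2, 18 without CVX-060 rat 4, 26 without CVX-060 rat 1, 16 without vehicle rat 5, 30 without vehicle rat 1 and 320 without vehicle rat 2. They numbered 84 with array weights, 26 without the group term and 28 on ranks of Bmal1. Within the vehicle rats they numbered 2, within the CVX-060 rats 53, and without both vehicle rat 2 and CVX-060 rat 5 they numbered 5. Without both vehicle rat 2 and CVX-060 rat 5 the ER slope was -0.20 and the ER difference 0.03. Without CVX-060 rat 4 and vehicle rat 5, an alternative chosen after seeing the data, the ER slope was -0.04, the ER difference -0.02 and the genes past the threshold on Bmal1 numbered 4. Replicate numbers did not pair the rats, with correlations of deviations between -0.17 and 0.15; with the replicate block the ER slope on Bmal1 was -0.02, 0 members passed in either fit and 0 genes passed on Bmal1. The sign held in every alternative for 9 of 37 members with CVX-060 and for 14 of 37 on Bmal1. The cause of these shifts was not tested. All 5-rat groups leave wide errors.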

Other observations

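Genes outside the lists whose signals followed the ER arm score most closely were looked up after the values were seen, among genes above background in all rats, so these correlations over 10 rats are a description. Srp9, a subunit of the signal recognition particle that brings secretory mRNAs to the ER, came first, with r = 0.97, and 0.94 without CVX-060 rat 4. It lay at 9.94, 9.80, 9.91, 10.04 and 10.22 in the vehicle rats and at 9.74, 9.90, 9.82, 10.49 and 10.07 in the CVX-060 rats. Next came C5h1orf122 with r = 0.97, Mtmr14 and Ss18l2, each with 0.96, Bet1, a SNARE of transport between the ER and the Golgi, with 0.95, Ccdc134 and the ubiquitin-like modifier Ufm1, each with 0.94. Without CVX-060 rat 4 these were lower, at 0.91, 0.86, 0.85, 0.88, 0.80 and 0.82 in the same order. In the other direction Vgll4 had r = -0.95, Rbm33 -0.93 and the junction gene Cgnl1 -0.93, at 9.30 in CVX-060 rat 4 and between 9.90 and 10.25 in the other 9 rats. Without CVX-060 rat 4 the r of Vgll4, Rbm33 and Cgnl1 was -0.85, -0.75 and -0.76.

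A pair of amino acid stress genes of the wider ER list, also chosen after their values were seen, set CVX-060 rats 4 and 5 apart. Slc7a11, the cystine transporter, lay at 5.74, 7.89, 6.84, 7.59 and 7.36 in the vehicle rats and at 6.80, 7.08, 5.21, 10.38 and 9.43 in the CVX-060 rats. Asns, asparagine synthetase, lay at 6.68, 8.54, 6.92, 7.21 and 7.73 with vehicle and at 7.23, 7.20, 5.90, 9.07 and 9.34 with CVX-060. Both are known targets of ATF4, whose part in these values was not tested. Slc7a11 was above background in 8 rats and Asns in 9. Nupr1 also lay high in CVX-060 rats 4 and 5, at 11.39 and 11.36, against 10.07 to 10.85 in the other CVX-060 rats. Vehicle rat 2 was higher still for Nupr1, at 11.59. The other stress genes named here did not set these rats apart together. Ddit3 and Trib3 lay at 10.04 and 10.26 in CVX-060 rat 4, where Ddit3 was highest, and at 8.13 and 9.28 in CVX-060 rat 5. Chac1 lay at 10.53 and 9.85 in CVX-060 rats 4 and 5, Sesn2 at 8.37 and 8.08, Ddit4 at 7.92 and 7.66 and Atf3 at 9.78 and 9.08, all within or below the range of the vehicle rats.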
